A study of Mus musculus with 2 samples.

Results

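Genes of the cell division cycle were followed across the cell types of adult mouse cortex and between wild-type and Fam69c knockout animals. A set of 42 genes was chosen by symbol among the 32285 genes of the count tables, and all 42 were found. They fall into 6 groups by role. These are 9 genes of origin licensing and the replicative helicase, 5 of DNA synthesis, 5 G1 and G1/S regulators, 5 mitotic cyclins and their kinase, 9 mitotic kinases and regulators of checkpoint and exit, and 9 genes of the spindle, centromere and chromosomes. The cells came from cortices of male mice aged 4 months, either Fam69c wild type or Fam69c knockout. The labels do not say how the knockout was made. Tissue was pooled by genotype (the labels name 7 mice and do not say whether that is the number per genotype), dissociated, stained with the viability dye 7-AAD and sorted before capture on the 10x Genomics 3′ platform. Each genotype gave 1 library, so no test was possible, and genotype and pool cannot be told apart. Transcripts of the targeted gene, listed as Dipk1c, stood at 32.3 (wild-type library) and 20.6 (knockout library) CPM, the scaled count of unique molecular identifiers (UMIs, counts of captured transcripts) used throughout. In neuroblast-like cells, on which most of the comparison of libraries rests, it stood at 3.86 (13 UMIs, wild type) and 6.08 (30 UMIs, knockout), higher in the library labelled knockout. Transcripts of the gene were thus still counted in that library, and whether the counted 3′ end lies outside the deleted part is not given in the labels, so this gene does not check them.

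As background, a cell commits to division when D and E cyclins with their kinases release E2F factors from the retinoblastoma protein. E2F factors then drive the genes that load the MCM helicase on replication origins and copy DNA in S phase. A later wave, in G2 and M phase, supplies the B cyclins, Cdk1, the Aurora and Polo kinases and the spindle proteins, many through the MuvB complex, whose element in promoters is the cell cycle homology region, and through NF-Y, which binds CCAAT boxes. In the adult mouse forebrain the best known dividing cells are transit-amplifying progenitors of the subventricular zone and young neuroblasts. Mature neurons and oligodendrocytes do not divide.

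The wild-type library held 7150 barcodes and 57166105 UMIs, and the knockout library held 9182 barcodes and 75473717 UMIs. Filtering left 4940 cells of the wild-type and 7032 of the knockout library, with medians of 8580 and 8449 UMIs per cell. Barcodes failing the filter were 27.9% in the former and 18.5% in the latter. The libraries shared 17 barcode sequences. Cells were gated on markers of 18 cell types that hold no cell cycle gene. A cell took a type when it had a UMI in at least 3 of its markers and in at least 2 more than of any other type, and is called, for example, neuroblast-like. The gate left 630 wild-type and 487 knockout cells without a type. Of these, 385 and 301 led by exactly 1 marker, while 463 and 347 gated cells led by exactly 2.

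A cell was called G2/M-positive when it had a UMI in at least 4 of 21 G2/M genes, and replication-positive when it had one in at least 4 of 14 licensing and synthesis genes. Hmgb2 and Cks2, which non-dividing cells also contain, and the 5 G1 regulators were left out of the call. G2/M-positive cells made up 156 of 4940 wild-type cells (3.16%, exact 95% interval 2.69% to 3.68%) and 240 of 7032 knockout cells (3.41%, 3.00% to 3.86%). Each interval overlapped the other library's value. All intervals here cover counting error only, and reads of 1 pool are not replicates. In all, 93 wild-type and 163 knockout cells had at least 12 of the 21 genes. Near the cut, exactly 3 genes were found in 62 and 34 cells, and exactly 4 in 20 and 17. A call is a range on a count of genes and not a cell type.

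Most of these dividing cells were neuroblast-like. Neuroblast-like cells, with markers such as Dcx (a microtubule protein of migrating neurons), Sox11 and Dlx1, numbered 237 (wild type) and 437 (knockout) and held 7.09% and 7.96% of all UMIs. They accounted for 96 of 156 G2/M-positive wild-type cells (61.5%, 53.4% to 69.2%) and 166 of 240 knockout cells (69.2%, 62.9% to 74.9%). Within the class, 40.5% of wild-type cells (34.2% to 47.1%) and 38.0% of knockout cells (33.4% to 42.7%) were G2/M-positive. With every cell thinned to 2000 UMIs and shallower cells left out (19 wild-type and 75 knockout), the shares were 35.3% and 35.4%. The log2 ratio of the unthinned shares, knockout over wild type, was -0.09 (-0.46 to 0.29), so no difference was detectable at this depth.

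**Figure D1:**
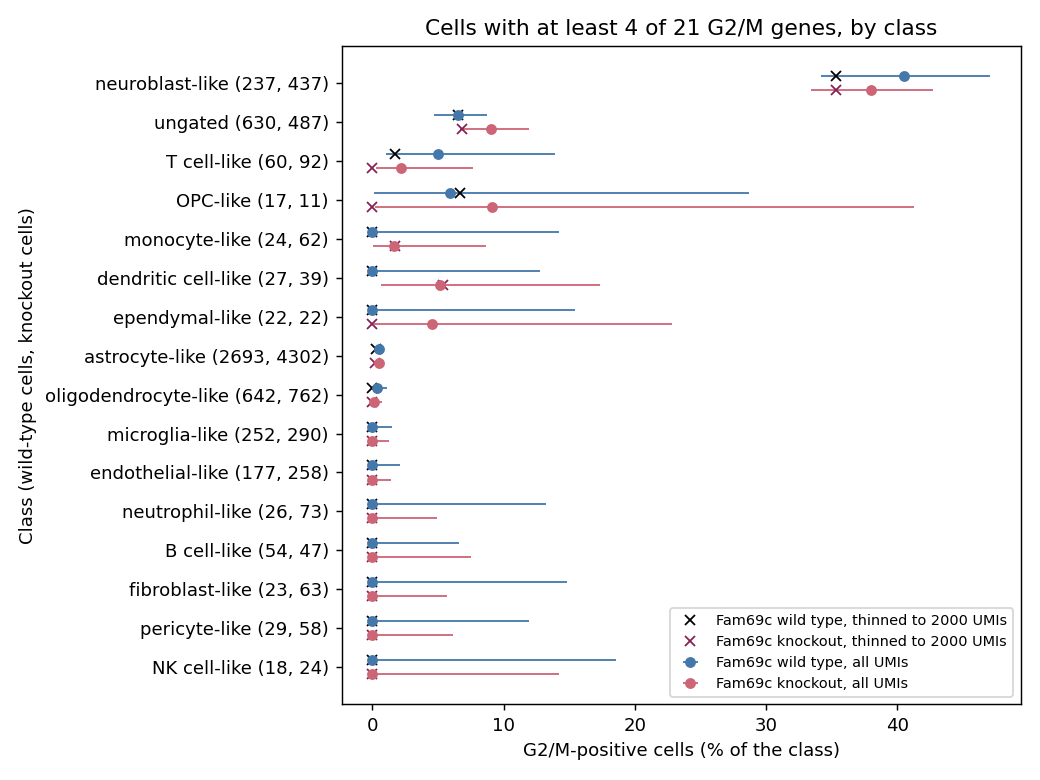
Share of G2/M-positive cells (x axis, percent of the class) in 16 classes (y axis, with the numbers of wild-type and knockout cells). Circles are all UMIs with exact 95% intervals for counting error, and crosses are cells thinned to 2000 UMIs. Neuroblast-like cells stand at 40.5% and 38.0%, and astrocyte-like and oligodendrocyte-like cells lie under 0.5% in both libraries.

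Neuroblast-like cells were split further by which genes they held. In the wild-type library 90 cells were positive for both gene sets (38.0%), 30 for replication genes alone (12.7%), 6 for G2/M genes alone (2.53%) and 111 for neither (46.8%). The knockout library had 147 (33.6%), 53 (12.1%), 19 (4.35%) and 218 (49.9%). The 4 shares had overlapping intervals between the libraries. Cells positive for both contained a median of 19 and 20 of the 21 G2/M genes and 12 replication genes in each library. Replication and mitotic transcripts were therefore found together in most G2/M-positive cells. All 21 G2/M genes were found in 31 wild-type and 58 knockout cells, and none in 97 and 179. Depth moved with the call: cells positive for both had medians of 24413 and 20075 UMIs, replication-only cells 13695 and 11638, and cells with neither 5822 and 5147.5. After thinning, cells positive for both fell to 17.4% and 17.7% of the class and G2/M-only cells stood at 17.9% and 17.7%, so the split between these states depends on depth.

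**Figure D2:**
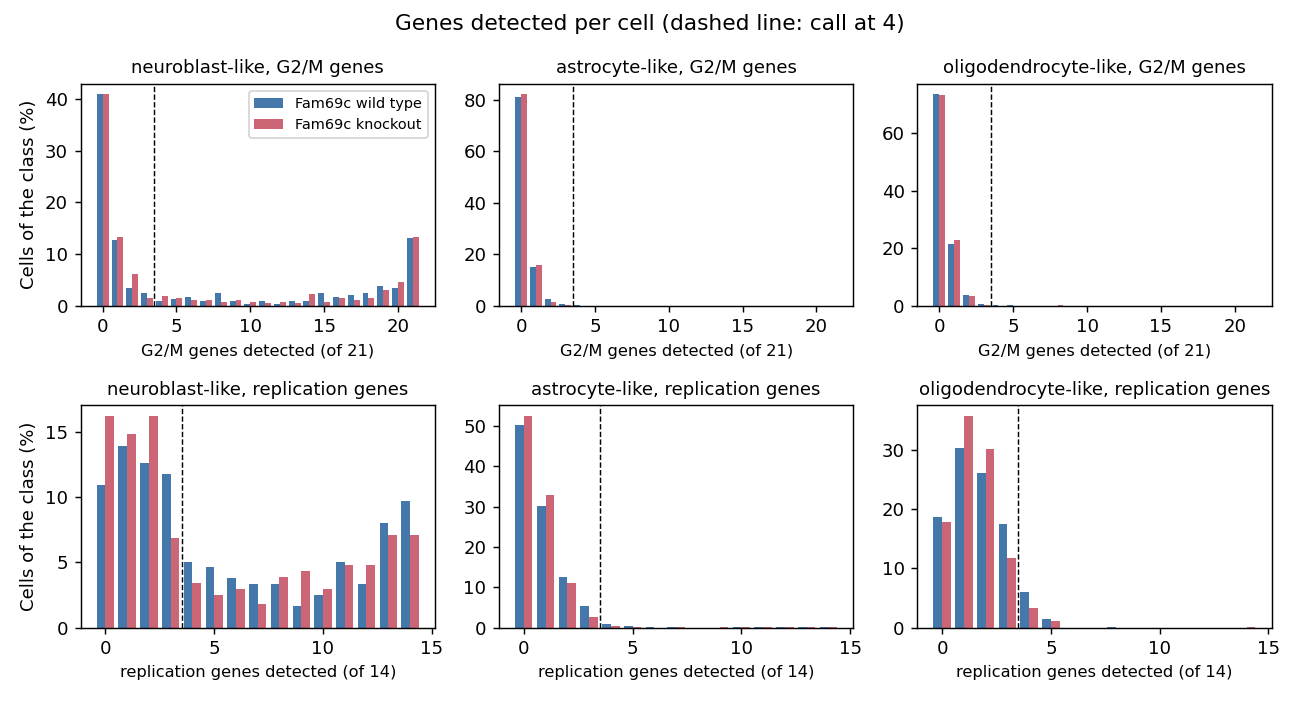
Number of G2/M genes (top, of 21) and replication genes (bottom, of 14) with a UMI per cell, as a percent of the cells of 3 classes in each library, with the call at 4 marked by a dashed line. Neuroblast-like cells show a separate group with nearly all genes, while astrocyte-like and oligodendrocyte-like cells pile up at 0 to 3.

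Outside the neuroblast-like class, 85 of the 396 G2/M-positive cells of both libraries carried no type, 33 were astrocyte-like and 16 were spread over all others. The ungated ones had medians of 5 neuroblast and 4 astrocyte markers, so that neither type led. The 33 astrocyte-like ones had medians of 6 astrocyte and 2 neuroblast markers, and they stood apart from other astrocyte-like cells in the genes named here. Aqp4, the water channel of mature astrocytes, stood at 64.1 CPM (wild type) and 64.9 (knockout) in them, against 663 and 605 in astrocyte-like cells with neither call. Egfr, the growth factor receptor of activated progenitors, stood at 489 and 424 against 177 and 103. In a clustering that used none of the 42 genes nor 71 further cell cycle genes, 1 cluster of 337 cells held 299 of the 396 G2/M-positive cells. The gate put 238 of its cells in the neuroblast-like class, 45 in the astrocyte-like class and 54 in none. Cell cycle genes outside those lists could still enter the clustering, so it is not independent of the cycle.

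Classes of mature cells held almost no G2/M-positive cell. Oligodendrocyte-like cells, which should lack these transcripts, had 2 of 642 (0.312%, wild type) and 1 of 762 (0.131%, knockout). The whole class had medians of 13574 and 11220 UMIs. The 2 wild-type positives had a median of 1609 UMIs, the knockout one had 29782, and all 3 together had a median of 1799. After thinning the class had 0 in both libraries. Both wild-type positives were too shallow to be thinned and were left out, so the wild-type 0 says nothing about depth. Among all astrocyte-like cells the share was 0.483% (0.257% to 0.824%) and 0.465% (0.284% to 0.717%), and 0.242% and 0.176% after thinning. None were found in 542 microglia-like cells, which allows a share of up to 0.554%, or in 435 endothelial-like cells, which allows up to 0.690%. None were found in 99 neutrophil-like, 101 B cell-like, 87 pericyte-like and 86 fibroblast-like cells either, which allow up to 3.03%, 2.97%, 3.45% and 3.49%. Single cells were positive in small classes. T cell-like cells had 3 of 60 and 2 of 92, oligodendrocyte precursor-like (OPC-like) cells 1 of 17 and 1 of 11, and dendritic cell-like cells 0 of 27 and 2 of 39. Monocyte-like cells had 0 of 24 and 1 of 62, ependymal-like cells 0 of 22 and 1 of 22, and erythroid-like cells 0 of 5 and 2 of 2, while 42 NK cell-like cells had none, which allows up to 7.14%. Among barcodes removed as doublets, 3 of 212 and 5 of 448 were G2/M-positive. At these numbers no difference between libraries was detectable.

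Replication genes alone were a weaker mark. Replication-only calls were made in 179 wild-type cells (3.62%, 3.12% to 4.18%) and 162 knockout cells (2.30%, 1.97% to 2.68%), intervals that did not overlap. After thinning the order turned, with 28 of 3692 cells (0.758%, 0.505% to 1.09%) and 53 of 6279 (0.844%, 0.633% to 1.10%), and the intervals overlapped. Thinning also moves cells from the group positive for both sets into this one, so the thinned calls need not be the same cells. Oligodendrocyte-like cells supplied 49 and 34 of the calls at full depth and 0 and 1 of the thinned ones. Thinned calls lay in neuroblast-like cells (16 and 38), astrocyte-like cells (4 and 9) and ungated cells (8 and 4). The full-depth share in oligodendrocyte-like cells, 7.63% and 4.46%, was above that in astrocyte-like cells, 1.30% and 0.628%. In OPC-like cells 4 of 17 and 0 of 11 had such a call. Pcna, the sliding clamp of DNA polymerases, which also serves in DNA repair, was found in 67.0% of wild-type and 64.3% of knockout oligodendrocyte-like cells, at 109 and 98.9 CPM.

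The share of each gene's transcripts that lay in neuroblast-like cells followed role. At least 50% lay there for 32 of 42 genes (wild type) and 33 of 42 (knockout), where 3.08% and 3.3% of all genes with at least 20 UMIs reached that share. All 23 genes of the 3 mitotic groups were among them in both libraries, with Aurkb at 79.6% and 65.2%, Top2a at 76.4% and 71.8% and Mki67 at 76.1% and 69.9%. The licensing group reached it for 5 and 6 of 9 genes, the synthesis group for 3 of 5 and the G1 group for 1 of 5, Ccnd2, at 66.4% and 70.0%. In the wild-type library the 5 lowest shares were those of Ccnd1 (2.05% and 3.83%), Mcm4 (26.7% and 28.3%), E2f1 (31.8% and 32.6%), Gins2 (32.3% and 40.9%) and Pcna (33.2% and 36.2%), with the knockout values given after them. In the knockout library Ccne1 (37.0%) lay below Gins2. Astrocyte-like cells held 49.8% and 57.7% of Ccnd1 and 49.8% of E2f1 transcripts in both libraries. They are also the class with most UMIs, at 54.2% and 59.6%.

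Levels are in CPM, the UMIs of a gene scaled to all UMIs of its class or state, and values of different genes are not compared because capture at the 3′ end differs between transcripts. Within neuroblast-like cells the origin licensing genes were present in both replication-positive states. Mcm7, a helicase subunit, stood at 241 (wild type) and 266 (knockout) in cells positive for both sets, at 149 and 206 in replication-only cells and at 77.3 and 84.0 in cells with neither. Mcm6, another subunit, stood at 215 and 209, then 96.1 and 185, then 24.0 and 23.4. Mcm3 stood at 144 and 157, then 48.1 and 104, then 1.33 and 2.60. All 9 genes stood above the neither state in replication-only cells in both libraries, and 8 (wild type) and 7 (knockout) stood higher still in cells positive for both. Gins2, a helicase partner, was an exception in the wild-type library, at 98.6 in replication-only cells against 78.8 in cells positive for both, with overlapping intervals. Since these genes made the call, this order describes the states and supports nothing. Mcm4 stood at 106 and 96.0, then 58.2 and 104, then 5.33 and 5.19. Cdc6, which loads the helicase, had 0 UMIs in the neither state in both libraries, against 49.7 and 36.9 CPM in cells positive for both.

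DNA synthesis genes were ordered the same way in all 5 cases. These 5 genes also made the replication call, so their order describes the states and supports nothing. Rrm2, the regulated subunit of ribonucleotide reductase, stood at 539 and 636 in cells positive for both, at 96.1 and 144 in replication-only cells and at 8.00 and 5.19 in cells with neither. Tyms, which makes thymidylate, stood at 199 and 239, then 37.9 and 67.0, then 12.0 and 13.8. Rrm1, the large subunit of the reductase, stood at 244 and 255, then 86.0 and 84.5, then 30.7 and 27.7. Pcna, at 614 and 553, then 225 and 250, kept 72.0 and 59.7 in cells with neither call. All 5 were lower in replication-only cells than in cells that also carried mitotic transcripts, in both libraries.

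The 5 G1 and G1/S regulators took no part in the call. E2f1, which turns on S phase genes, stood at 49.7 and 59.8 in cells positive for both, at 37.9 and 43.1 in replication-only cells and at 6.67 and 5.19 in cells with neither. Ccne2, an E cyclin that drives entry into S phase, stood at 36.4 and 41.2, then 12.6 and 14.4, then 6.67 and 4.33. Ccnd2, a D cyclin, behaved differently. It stood at 5646 and 5702 in cells positive for both, at 6311 and 8413 in replication-only cells and still at 3750 and 4352 in cells with neither, where 94.6% and 92.2% of cells had a UMI. Its highest level was in replication-only cells in both libraries, with intervals (6066 to 6564 and 8188 to 8643) above those of the other states. Ccnd1, the other D cyclin here, stood at 13.2 and 14.9, then 10.1 and 52.6 (4 and 33 UMIs), then 8.00 and 5.19, so that the knockout replication-only cells stood apart from every other state.

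Levels of the mitotic groups follow as a description of the states, since 21 of the 23 genes made the G2/M call and low values without the call were fixed by it. Cdk1, the mitotic kinase, stood at 327 (wild type) and 438 (knockout) in cells positive for both, at 2.53 and 1.59 in replication-only cells and at 1.33 and 0 in cells with neither. Ccnb1, its B cyclin, stood at 293 and 342, then 0 and 1.59, then 0 in both. Ube2c, the ubiquitin-conjugating enzyme of mitotic exit, stood at 985 and 1208, then 7.59 and 19.1, then 10.7 and 21.6. Birc5 (survivin), of the chromosomal passenger complex, stood at 378 and 498, then 10.1 and 0, then 2.67 and 1.73. Of these only Ube2c kept a level above 10 CPM in cells with neither. Ccna2 (cyclin A2, of S phase and G2) stood at 252 and 257 in cells positive for both and at 1.33 and 0.866 in cells with neither. Cdca8 (borealin) stood at 430 and 495 against 6.67 and 7.79, and Cdc20 at 238 and 258 against 1.33 and 2.60. The zeros are upper limits: in the neither state 3 UMIs make 4.00 CPM (wild type) and 2.60 (knockout).

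The spindle and chromosome genes other than Hmgb2 made the call as well, and their order across states supports nothing. Top2a (topoisomerase II alpha, which untangles sister chromatids) stood at 1871 and 1711 in cells positive for both, at 17.7 and 9.57 in replication-only cells and at 10.7 and 10.4 in cells with neither. Mki67, the Ki-67 antigen that coats mitotic chromosomes, stood at 1109 and 750, then 5.06 and 4.78, then 0 and 1.73. Cenpf, a kinetochore protein, stood at 1210 and 1122, then 17.7 and 27.1, then 5.33 and 7.79. Hmgb2, a chromatin protein that was not used for the call, stood at 4750 and 5084, then 478 and 641, then 163 and 153. Cks2, the other mitotic gene outside the call, stood at 514 and 609, then 22.8 and 27.1, then 18.7 and 16.4. Hmgb2 thus stepped up already in replication-only cells, where Cks2 stayed within counting error of the neither state.

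**Figure D3:**
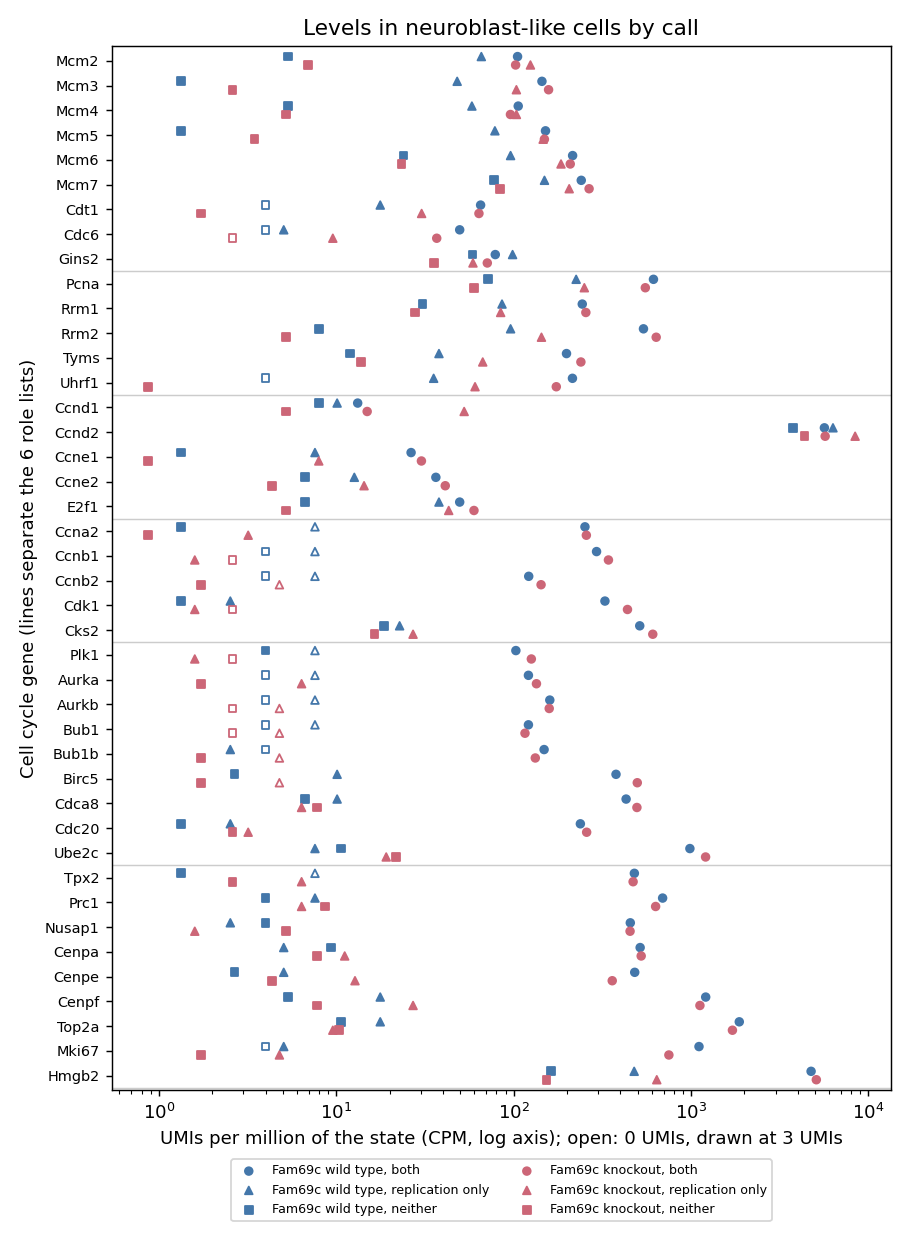
Level of each of the 42 genes (y axis) in neuroblast-like cells positive for both gene sets (circles), for replication genes alone (triangles) and for neither (squares), in CPM on a log axis. Mitotic genes lie near 10 CPM or under it outside cells positive for both, apart from Cks2 and Hmgb2 and a few values up to 27.1, while licensing genes are raised in both replication-positive states.

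Promoters of a few mitotic and licensing genes are shown for the letters that mark each wave, as the 250 bases before each gene's start (RefSeq sequences, build GRCm38.p6). The table matched 34 of the 42 genes and had none for Ccnd1, Ccne2, Ccna2, Mcm4, Aurkb, Tpx2, Gins2 and Ccnd2. Both strands were searched for CCAAT, the NF-Y box, for TTTGAA, the core of the cell cycle homology region, and for 4 spellings of an E2F site (TTTCCCGC, TTTCGCGC, TTTGCCGC and TTTGGCGC). Capitals mark the matches, which read as the reverse complement where they lie on the other strand, and where matches overlap they run into 1 stretch of capitals. Cyclin B2, Cdk1, Cdc20 (the activator of the anaphase-promoting complex) and Top2a are shown as mitotic promoters that hold CCAAT and TTTGAA. Mcm6 and Mcm5 are shown as licensing promoters that hold an E2F spelling. The windows are chr9:70421555-70421804, minus strand, for Ccnb2, chr10:69352913-69353162, minus strand, for Cdk1, chr4:118437344-118437593, minus strand, for Cdc20, chr11:99024190-99024439, minus strand, for Top2a, chr1:128359706-128359955, minus strand, for Mcm6 and chr8:75109259-75109508, plus strand, for Mcm5. Each lies directly upstream of the start site given by RefSeq.
Ccnb2: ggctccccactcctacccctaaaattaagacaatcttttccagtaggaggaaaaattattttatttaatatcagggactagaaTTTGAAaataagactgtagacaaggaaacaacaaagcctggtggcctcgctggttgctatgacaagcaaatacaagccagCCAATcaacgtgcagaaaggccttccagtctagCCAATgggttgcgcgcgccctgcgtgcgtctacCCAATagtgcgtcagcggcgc
Cdk1: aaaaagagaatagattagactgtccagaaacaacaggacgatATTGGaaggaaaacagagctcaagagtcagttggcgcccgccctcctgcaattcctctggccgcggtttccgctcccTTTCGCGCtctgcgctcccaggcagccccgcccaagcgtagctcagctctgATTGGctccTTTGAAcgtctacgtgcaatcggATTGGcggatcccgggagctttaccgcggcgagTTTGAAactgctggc
Cdc20: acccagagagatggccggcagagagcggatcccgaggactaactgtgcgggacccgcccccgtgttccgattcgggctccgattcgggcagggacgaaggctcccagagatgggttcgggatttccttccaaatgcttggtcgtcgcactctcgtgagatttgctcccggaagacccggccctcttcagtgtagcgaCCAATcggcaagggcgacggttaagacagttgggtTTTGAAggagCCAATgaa
Top2a: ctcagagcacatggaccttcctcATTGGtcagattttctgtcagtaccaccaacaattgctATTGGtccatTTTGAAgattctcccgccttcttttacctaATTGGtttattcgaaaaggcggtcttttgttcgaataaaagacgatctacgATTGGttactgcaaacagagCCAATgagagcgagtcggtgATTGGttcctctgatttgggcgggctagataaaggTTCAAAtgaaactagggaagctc
Mcm6: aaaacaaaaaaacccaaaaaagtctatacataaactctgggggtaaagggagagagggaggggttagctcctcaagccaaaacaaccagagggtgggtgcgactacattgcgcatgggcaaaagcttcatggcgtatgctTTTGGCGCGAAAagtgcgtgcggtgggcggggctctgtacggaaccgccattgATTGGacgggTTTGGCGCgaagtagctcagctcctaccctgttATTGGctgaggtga
Mcm5: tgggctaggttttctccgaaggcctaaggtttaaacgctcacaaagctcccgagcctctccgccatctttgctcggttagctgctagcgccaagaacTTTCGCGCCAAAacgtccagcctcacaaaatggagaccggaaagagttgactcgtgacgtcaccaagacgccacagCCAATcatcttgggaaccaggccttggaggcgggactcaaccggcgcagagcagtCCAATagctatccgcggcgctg

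CCAAT was found in 18 of the 20 mitotic promoters (90.0%) and in 9 of the 12 replication promoters (75.0%), against 34.5% of all 27025 promoter windows of the same length. TTTGAA was found in 7 of 20 mitotic promoters (35.0%), those of Ccnb2, Cdc20, Cdk1, Hmgb2, Mki67, Top2a and Ube2c, and in 1 of 12 replication promoters (Mcm2), against 16.3% of all. All 7 mitotic promoters with TTTGAA also held CCAAT, a pair found in 5.73% of all windows. An E2F spelling was found in 4 of 12 replication promoters (Cdc6, Mcm5, Mcm6 and Mcm7) and in 1 of 20 mitotic ones (Cdk1), against 1.91% of all. These letters describe the windows. They are not mapped binding sites.

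Further cell cycle genes, chosen for their textbook role and used neither for the gate nor for the call, are described by the same states. Of 30 other G2/M genes, all 30 were at least 2 times as high in G2/M-positive as in neither-called neuroblast-like cells in both libraries, where 13.2% (wild type) and 13.3% (knockout) of all genes passed that fold. Kif11, the mitotic spindle motor, stood at 421 and 311 CPM in G2/M-positive cells against 4.00 and 1.73. Smc4, a condensin subunit, stood at 614 and 607 against 89.3 and 69.2. Of 24 other S phase genes, 23 passed in each library, all but Orc6 (wild type) and all but Pola1 (knockout). Dut, which guards DNA against uracil, stood at 545 and 664 against 48.0 and 60.6. In replication-only cells 7 of 12 (wild type) and 16 of 18 (knockout) measured S phase genes passed, where 3.62% and 5.41% of all genes did. None of the other G2/M genes that could be measured passed there (0 of 3 and 0 of 4), and most of the 30 could not be measured. Of 8 measured inhibitors and pocket proteins, 4 passed in each library. Cdkn2c, an inhibitor of the D cyclin kinases, stood at 152 and 151 in G2/M-positive cells against 36.0 and 33.8. Cdkn1b, which holds cells in G1, stood at 508 and 369 against 543 and 368 and did not pass.

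Markers of progenitors and of maturing neuroblasts moved with the call. Of 6 transit-amplifying progenitor genes, 5 passed the same fold in both libraries. Gsx2, a factor of ventral forebrain progenitors, stood at 51.3 and 64.6 CPM in G2/M-positive neuroblast-like cells, against 6.67 and 3.46 in cells with neither call. Egfr stood at 84.1 and 61.5 against 28.0 and 21.6, and Hes6, a nuclear factor of the Hes family, at 131 and 170 against 65.3 and 58.0. All 6 late neuroblast genes were lower in G2/M-positive cells, 4 of them by at least 2 times in the wild-type library and all 6 in the knockout library, where 13.4% and 12.2% of all genes were. Dcx and Tubb3 of this list are also gate markers of the class, and Gad1 and Gad2 are gate markers of neurons. Stmn2, a growth cone protein, stood at 845 and 826 against 2321 and 2625. In replication-only cells Stmn2 stood at 2259 and 2134 and Tubb3 (a neuronal tubulin) at 1854 and 2079, against 1606 and 1948 in cells with neither call. None of the 6 late neuroblast genes was lower by the fold in replication-only cells in either library, where 7.38% and 6.39% of all genes were. By direction alone, 2 (wild type) and 1 (knockout) of the 6 were higher there and the rest lower. For the progenitor genes the libraries differed in these cells. There 0 of 3 measured genes (wild type) and 4 of 5 (knockout) passed the fold upward, where 3.62% and 5.41% of all genes did.

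The D cyclins, which sense growth signals in G1, were found far beyond dividing cells and in different classes. Ccnd1 (chr7:144929931-144939925, minus strand, GRCm38) stood at 206 (wild type, 184 to 230) and 204 (knockout, 181 to 230) in microglia-like cells, of which none was G2/M-positive. It stood at 119 and 84.1 in endothelial-like cells, at 36.7 and 34.2 in astrocyte-like cells, at 11.6 and 17 in neuroblast-like cells and at 1.65 and 1.86 in oligodendrocyte-like cells. It was also present in the small OPC-like class (611 and 165, from 17 and 11 cells) and dendritic cell-like class (556 and 399, from 27 and 39 cells). Ccnd2 (chr6:127125162-127152193, minus strand, GRCm38) was ordered otherwise. It stood at 5288 and 5691 in neuroblast-like, 474 and 396 in T cell-like, 188 and 183 in astrocyte-like, 79.1 and 81.9 in endothelial-like, 11.9 and 11 in microglia-like and 9.77 and 13.4 in oligodendrocyte-like cells. Microglia-like and oligodendrocyte-like cells had overlapping Ccnd2 intervals in both libraries, and every other step among these 6 classes exceeded counting error in both. The Ccnd1 order of microglia-like, endothelial-like, astrocyte-like, neuroblast-like and oligodendrocyte-like cells had no overlapping neighbours in either library.

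**Figure D4:**
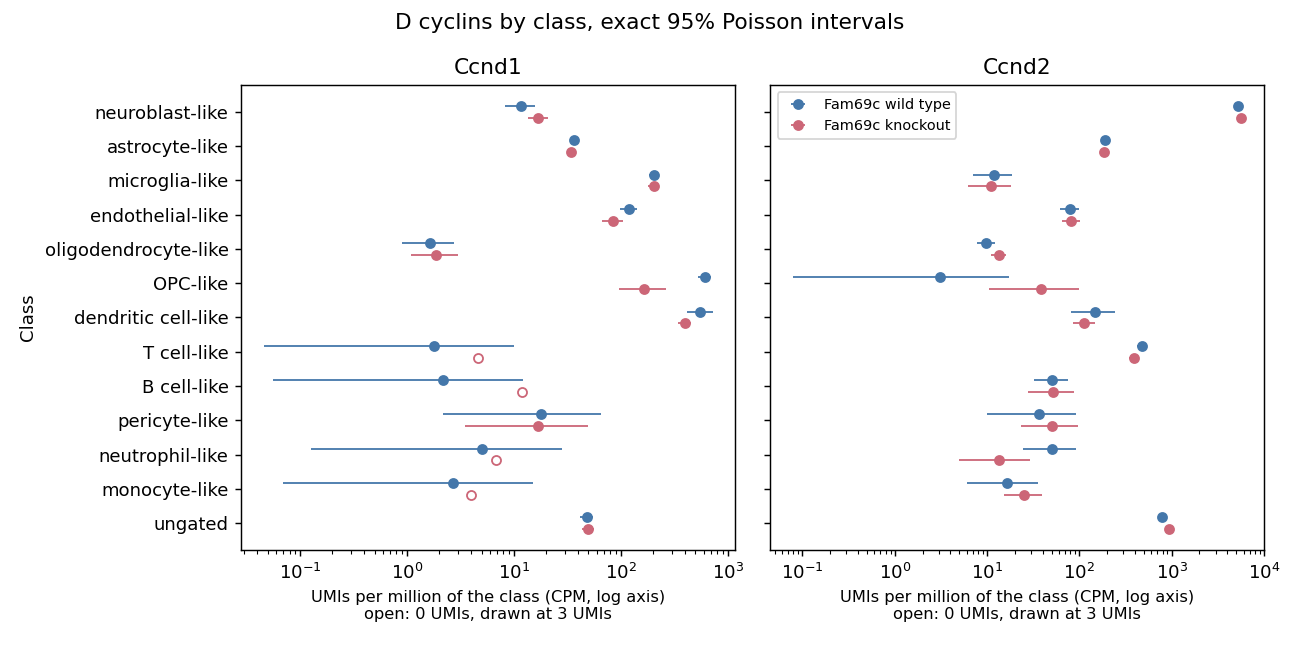
Level of Ccnd1 (left) and Ccnd2 (right) in 13 classes (y axis) of each library, in CPM on a log axis with exact 95% Poisson intervals. Ccnd1 is high in microglia-like (206 and 204) and low in oligodendrocyte-like cells (1.65 and 1.86), and Ccnd2 is highest in neuroblast-like cells (5288 and 5691).

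The last comparison asked whether cell cycle genes differed between the genotypes. In neuroblast-like cells 22 of the 42 genes were higher in the knockout library and 20 lower, with a median log2 ratio (knockout over wild type) of 0.03, beside -0.12 for all 11391 genes with at least 20 UMIs. Only Mki67 passed a 1.5-fold difference: it had 729 CPM (wild type) and 469 (knockout), a log2 ratio of -0.64 (exact interval -0.72 to -0.55). Of all genes, 12.8% were lower and 3.32% higher by that fold, so 1 of 42 lower and 0 of 42 higher is under the background. That background includes genes down to 20 UMIs and was not matched to the 42 genes for counts. Next came Ccnd1 at 11.6 and 17 (0.56, -0.01 to 1.14, from 39 and 84 UMIs), Cenpe, a kinetochore motor, at 323 and 232 (-0.48, -0.60 to -0.36), and Cdc6 at 32.9 and 23.7 (-0.48, -0.86 to -0.09). Mki67, Cenpe and Cdc6 were lower in the knockout library beyond counting error, and none can be set against the spread between animals. For Mki67 the ratio ran from -0.75 to -0.47 over the alternatives and lay under 1.5-fold when cells were thinned (-0.55), typed by cluster (-0.47), gated with a lead of 1 marker (-0.55) or scaled by median ratio (-0.52).

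By role, the ratios leaned different ways, beside a median of -0.12 over all genes. Most genes were thus lower in the knockout library. The share of all genes in each direction is not given here, so the counts by direction only describe the groups. All 5 G1 regulators were higher in the knockout library (0.08 to 0.56), as were 4 of 5 mitotic cyclin and kinase genes, with Cdk1 at 216 and 269 (0.32, 0.19 to 0.45). Mitotic kinase and exit genes were higher in 6 of 9, with Birc5 at 250 and 312 (0.32, 0.20 to 0.45) and Ube2c at 650 and 762 (0.23). Spindle and chromosome genes were lower in 8 of 9, but in 5 of 9 with scaling by median ratio, which adds 0.12 to every ratio, and in 4 of 9 with cells typed by cluster, with Top2a at 1229 and 1054 (-0.22, -0.28 to -0.16) and Cenpf at 803 and 709 (-0.18). Licensing genes were split, 4 higher and 5 lower (7 and 2 with scaling by median ratio), and so were synthesis genes, 2 and 3. The G1 regulators (4 of 5 or more, apart from 3 of 3 measured after thinning), the mitotic cyclin group (3 of 5 or more) and the kinase group (5 of 9 or more) stayed mostly higher in the knockout library under every alternative run. Ccnd2 stood at 5288 and 5691 (0.11, 0.08 to 0.13). Counting intervals lay wholly above 0 for 10 genes and wholly below for 10. The share of all genes with such intervals is not given here, so these counts are not read as a result about the 42 genes. Within G2/M-positive neuroblast-like cells 22 genes were higher and 20 lower, and Mki67 (1103 and 732, -0.59) was again the only one past the fold, where 4.23% of all genes were higher and 12.9% lower by it. Of 11 genes with at least 20 UMIs in cells with neither call, Ube2c was higher by it (10.7 and 21.6, 1.02, -0.17 to 2.38) and Gins2 lower (58.7 and 35.5, -0.72), where 6.11% and 18.7% of all genes were.

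**Figure D5:**
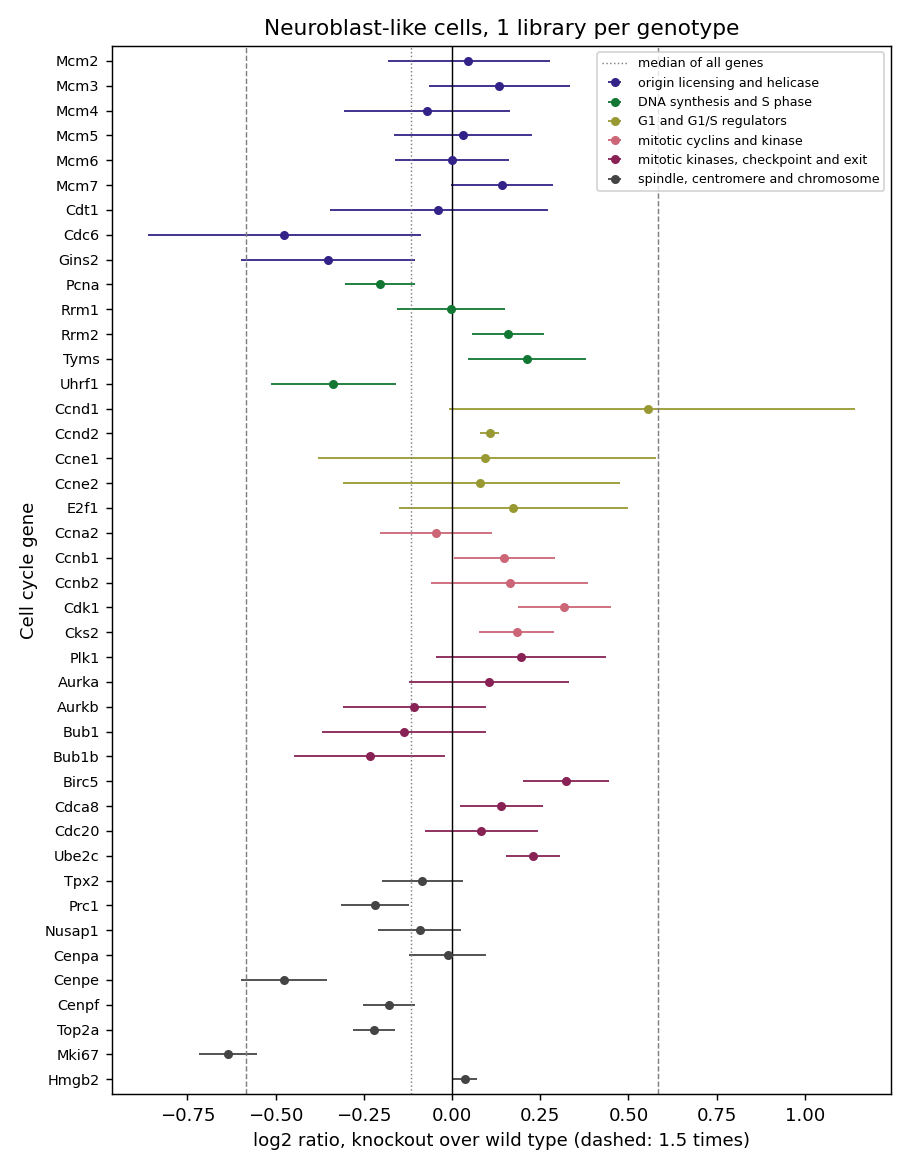
log2 ratio of knockout over wild-type level (x axis) for the 42 genes (y axis, coloured by role) in neuroblast-like cells, with exact conditional intervals for counting error and 1 library per genotype. Mki67 alone lies beyond the dashed line at 1.5-fold, at -0.64, and 8 of 9 spindle and chromosome genes lie left of 0, against 5 of 9 with scaling by median ratio.

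Transcript length moved with these ratios. Among the 10 genes with the shortest transcripts (692 to 2199 bases, the longest GENCODE M21 transcript per gene) 8 had the higher level in knockout cells, at a median log2 ratio of 0.13. Among the 10 longest (4355 to 11130 bases) 8 were lower, with a median of -0.13, and these include Mki67 (10061 bases), Cenpf (11130) and Cenpe (7910). Across the 42 genes the ratio had a Spearman correlation of -0.43 and a Pearson correlation of -0.45 with log2 length. Across 11386 genes of the same cells the values were -0.44 and -0.31. Genes share the 2 libraries and are not independent replicates, and the part of length in the cell cycle ratios was not tested.

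Other classes gave larger ratios at lower counts. In ungated cells 36 of 42 genes were higher in the knockout library and 18 passed 1.5-fold upward, where 6.83% of all genes did. These 18 were all mitotic genes, among them Nusap1 (30.1 and 61.7, log2 ratio 1.04), a spindle protein, Birc5 (32.6 and 66.8, 1.04), Aurkb (14.1 and 28.1, 0.99) and Cdca8 (37.4 and 74.0, 0.99), a passenger complex subunit. Beside them, ungated cells of the knockout library were deeper (medians of 5930 against 1622.5 UMIs), 9.03% of them (6.64% to 11.9%) against 6.51% (4.71% to 8.73%) were G2/M-positive, and all 6 late neuroblast genes were lower. After thinning the shares were 6.83% and 6.55%. The part of depth and gate in the ungated ratios was not tested. In astrocyte-like cells 2 genes passed upward, Aurkb (0.775 and 2.43, from 20 and 90 UMIs, 1.65) and Cdk1 (1.86 and 4.38, 1.23), and 2 downward, Gins2 (13.0 and 6.92, -0.91), and Ccne2 (3.76 and 2.38, -0.66), where 3.45% and 12.8% of all genes did. Oligodendrocyte-like cells had 4 of 28 measured genes past the fold upward and 5 downward, at 53 UMIs or fewer in the knockout library, where 4.62% and 7.51% of all genes were. Of 9 genes measured in microglia-like cells none passed upward and Mcm7 passed downward (15.2 and 7.35, from 23 and 10 UMIs), where 8.43% and 9.93% did, and of 10 in endothelial-like cells none passed either way, where 8.2% and 11% did. Over all kept cells 33 genes were higher and none passed the fold, where 3.44% of all genes were higher and 12.4% lower by it, with a median of 0.17 beside -0.12 for all genes, and neuroblast-like cells made up 6.21% of knockout against 4.80% of wild-type cells. The furthest were Cdk1 (20.7 and 30.2, 0.55), Birc5 (23.4 and 34.3, 0.55), Gins2 (16.7 and 11.6, -0.52) and Ube2c (61.4 and 83.0, 0.43).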

How the data were processed

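Pools of cortex cells (1 per genotype) were measured by 10x Genomics 3′ single-cell RNA sequencing. The authors deposited raw UMI counts per gene and cell barcode, made with Cell Ranger 4.0.0 against mm10, per the submitters' processing notes. Those notes also name Seurat 3.0 and R 4.0.3.

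Barcodes under 500 genes or over 20% mitochondrial UMIs were dropped. The automatic Scrublet threshold failed (0 and 164 barcodes), so the top-scoring 0.8% per 1000 barcodes were removed instead (212 and 448). A cell took 1 of 18 types when it had at least 3 of that type's 8 markers (7 found for erythroid cells) and led by at least 2, thresholds chosen after the data were seen. Counts were summed per class and library and divided by the class total to give CPM (counts scaled per class). Exact Poisson and Clopper-Pearson intervals (95%) cover counting error only. No test was made, since each genotype has 1 library. Ratios were taken for genes with at least 20 UMIs over both libraries, or over both states of 1 library. A gene was counted past a fold of 1.5 between libraries or 2 between states. A count of 0 is bounded by 3 counts. Gene positions and transcript lengths came from GENCODE M21. Genes named with values are Ccnd1 and Ccnd2, the 4 genes with most UMIs in each role list, up to 4 with the largest log2 ratio in a class and up to 4 with most UMIs of each other list. Others (Aqp4, Alas2, Aurkb, Cdc6 and Gins2 beyond that rule) were chosen after their values were seen. The 42 genes and all lists were chosen with earlier results of these data known. Scripts were tested on simulated data. Alternatives changed the cell filter, the call, the gate, the scaling and the depth. Tools were Python 3.11.15, scanpy 1.11.5, numpy 2.4.6, scipy 1.17.1, pandas 2.3.3, scikit-learn 1.9.0, leidenalg 0.10.2 and matplotlib 3.10.9.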

Additional observations from a re-analysis of the deposited data

How the results depend on the processing

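The shares of cycling cells depend on the cut and on depth. So does the share of neuroblast-like cells among G2/M-positive cells, which in the wild-type library fell to 46.8% with a cut of 3 genes. In the knockout library it did not fall under 62.1% in any alternative that moved it. Values are given as wild type, then knockout. The share of cells with any cycling call (6.78% and 5.72%) became 5.0% and 4.80% with no cell filter, 8.99% and 6.63% with a stricter one, 15% and 10.4% with a cut of 3 genes, 3.32% and 3.83% with 6 genes, and 3.52% and 3.47% after thinning. The order of the libraries thus turned with a cut of 6. The G2/M-positive share became 2.41% and 2.93%, 4.02% and 3.87%, 4.41% and 3.90%, and 2.49% and 2.94% under the same 4 changes of filter and cut, and 2.76% and 2.63% after thinning. Neuroblast-like cells made up 37.6% (32.4% to 43.0%) and 54.5% (49.5% to 59.4%) of all cycling cells, intervals that did not overlap, and 20.6% and 33.4% of all cycling cells with a cut of 3, 65.9% and 71.7% with 6, 46.0% and 68.2% when typed by cluster, and 71.5% and 76.1% after thinning. Of G2/M-positive wild-type cells they made up 61.5% as reported, 46.8% with a cut of 3, 74.0% with 6, 74.4% by cluster and 75.5% after thinning, and of knockout ones 69.2% as reported, 89.2% by cluster, 62.1% with a gate lead of 3 and 77.6% after thinning. The gate leads of 1 and 3 were added after seeing the data. The median log2 ratio of the 42 genes in neuroblast-like cells ran from 0.00 to 0.15. Typing by cluster turned the sign of 12 of 42 ratios, and scaling by median ratio turned 9. No paired analysis was possible because each genotype has 1 library. Depth limits the small classes, where 1 or 2 cells decide a share.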

Other observations

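Late erythroid genes, a sign of red cell RNA, differed in direction between classes and states. In neuroblast-like cells 5 of 5 measured genes were higher in the knockout library, beside a median log2 ratio of -0.12 over all genes. Among G2/M-positive neuroblast-like cells 2 of 4 were higher. Over all kept cells and in ungated cells 0 of 6 were higher. In each of these 4 were lower by 1.5 times or more, where 12.4% and 10.8% of all genes were. Alas2, the first enzyme of erythroid heme synthesis, had 3 UMIs in wild-type and 68 in knockout neuroblast-like cells with neither call, 23 and 20 in G2/M-positive ones and 2 and 0 in replication-only ones. The part of erythroid RNA in the values of cells with neither call was not tested.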
